A study of Drosophila melanogaster with 6 samples.

Results

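Heat shock chaperone genes of Drosophila melanogaster were examined on 6 microarrays of the wing imaginal disc of the third larval instar, the epithelium that forms the adult wing and notum. The genes were 10 named chaperones and co-chaperones: the small heat shock protein genes Hsp22, Hsp23, Hsp26, Hsp27 and Hsp67Bc, the Hsp70-class genes Hsp68 and Hsp70Bb, the Hsp90 gene Hsp83, and the co-chaperone genes DnaJ-1 and stv. A probe set, the group of probes that reads 1 transcript, was included where the annotation lists exactly 1 gene symbol and that symbol is one of the 10. This gave 6 of the 13966 tested probe sets, for 5 of the 10 genes: Hsp26, Hsp27, Hsp68, DnaJ-1 and stv, the last with 2 probe sets. The genes were chosen from earlier results of these data, in particular from log2 values that differed between replicate numbers. Differences between replicate numbers are therefore described here with no test.

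The transgenes encode forms of Egfr, the fly's epidermal growth factor receptor. A dominant negative form was expressed in 3 samples and an activated form, called TOP in the labels, in the other 3. Both were driven by 71B-Gal4, a fly line that turns on transgenes in part of the tissue. All samples carry the driver and a transgene, so neither group is a baseline, and the labels give no cell pattern for the driver and no pooling of animals. The fly stocks grew at 25 °C, dissection was on ice, and 6 µg of total RNA went into each labelling. The arrays are called DN1 to DN3 (dominant negative) and ACT1 to ACT3 (activated), by the replicate number in the sample titles. The labels do not say what samples of the same number share, nor that replicates came from separate animals, so the spread behind the p-values may be technical only.

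Heat shock proteins are chaperones that bind unfolded proteins. In flies the heat shock factor Hsf trimerises under heat or protein damage and binds short heat shock elements upstream of these genes. Small heat shock proteins hold unfolded proteins without ATP, Hsp70-class proteins refold them with ATP, and Hsp90 matures signalling proteins. J-domain proteins such as DnaJ-1 stimulate the ATPase of Hsp70, and BAG-domain proteins such as Starvin, the product of stv, help Hsp70 release its client. Several small heat shock genes of the fly are also switched on in development by the steroid hormone ecdysone.

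The values are log2 probe set signals, so 1 unit is a 2-fold difference. Array medians ran from 8.01 to 8.06. The 4 yeast control probe sets, a rough background level, averaged 5.54 in DN2 and 5.59 in ACT2, the lowest of the 6 arrays, against 5.66 to 5.96 in the others. The part of that gap in the differences below was not tested. The wing disc marker list had 8 names, among them Ubx, which was listed as absent in wing disc and was not measured. The 6 measured included the POU domain gene nub at 9.52 to 10.77. They also included the pouch selector gene vg, named outside the rule of largest range, at 8.31 to 9.38. Both lie above the yeast controls on every array. In bulk discs, fewer cells of a type and less RNA per cell cannot be told apart. The number of arrays limits the precision.

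Arrays numbered 2 read highest for most of the chaperones, in both transgene groups, and by far the most for the Hsp70 class. Both DN2 and ACT2 lay above the other 4 arrays at 4 of the 6 probe sets: those of Hsp68, DnaJ-1 and Hsp26 and the lower of the pair for stv. Over all tested probe sets 5.31% did so. Since this contrast led to the choice of the genes, nothing is read from the comparison of these shares. Both arrays numbered 1 were above the other 4 at 0 of 6 probe sets (16.6% of all probe sets) and below them at 0 of 6 (8.36%). The mean of the arrays numbered 2 exceeded that of number 1 at 6 of 6 probe sets, by 0.08 to 2.12, and that of number 3 at 6 of 6. Number 3 minus number 2 ran from -2.44 to -0.43. The median over the 5 genes was 0.89 for number 2 minus number 1, -0.32 for number 3 minus number 1 and -1.18 for number 3 minus number 2. Over all probe sets the medians were -0.03, -0.06 and -0.01.

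**Figure D1:**
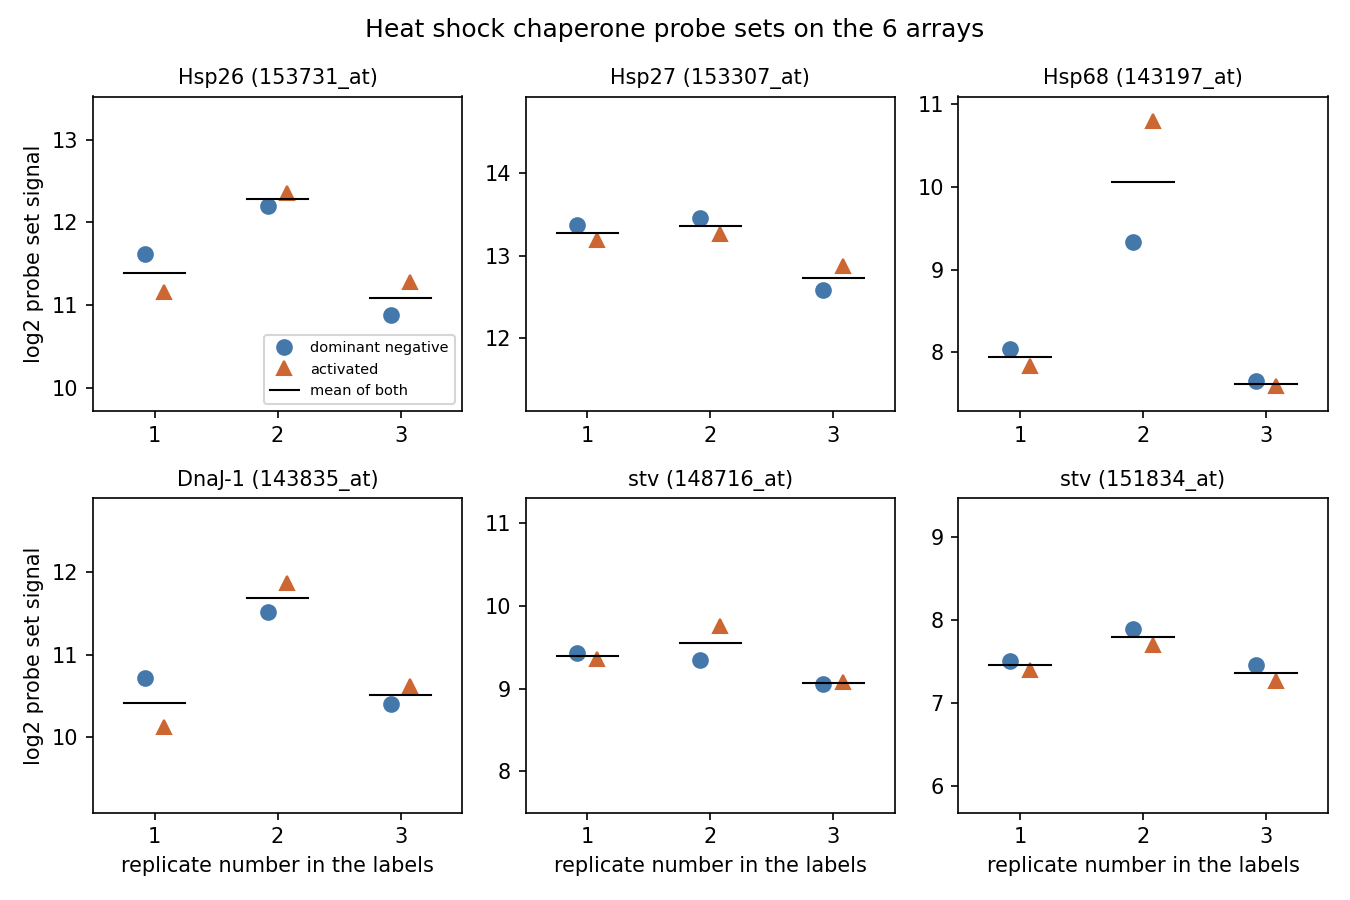
Each panel plots the log2 signal of 1 probe set against the replicate number, with circles for dominant negative and triangles for activated discs and a line at the mean of both; all panels span 3.8 log2 units. Number 2 stands above numbers 1 and 3 for Hsp68 (10.79 and 9.33 against 7.59 to 8.04), DnaJ-1 and Hsp26, and hardly above number 1 for Hsp27.

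Among the small heat shock proteins, Hsp26 (probe set 153731_at) read 11.62, 12.20 and 10.89 in DN1, DN2 and DN3. In ACT1, ACT2 and ACT3 it read 11.16, 12.36 and 11.28. DN2 and ACT2 were the highest arrays, and they differed from each other by 0.16. Number 2 exceeded number 1 by 0.89, or 1.85-fold, which is 0.58 in dominant negative and 1.20 in activated discs. Hsp27 (153307_at) read 13.37, 13.46 and 12.58 in DN1 to DN3 and 13.19, 13.26 and 12.88 in ACT1 to ACT3. Here numbers 1 and 2 overlapped, with number 2 minus number 1 at 0.08, while DN3 and ACT3 were the lowest arrays. Number 3 minus number 1 was -0.55 for Hsp27, with -0.78 in dominant negative and -0.31 in activated discs.

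In the Hsp70 class, Hsp68 (143197_at), a heat-inducible Hsp70, spanned 3.21 log2 units over the 6 arrays, or 9.23-fold. It read 8.04, 9.33 and 7.65 in DN1 to DN3, and 7.84, 10.79 and 7.59 in ACT1 to ACT3. The arrays other than DN2 and ACT2 lay within 0.5 of each other, and ACT2 stood above DN2 by 1.46, or 2.76-fold. Number 2 exceeded number 1 by 2.12, or 4.36-fold. DN2 exceeded the mean of DN1 and DN3 by 2.80-fold, and ACT2 exceeded that of ACT1 and ACT3 by 8.47-fold. DN3 and ACT3 were the lowest arrays, though only 0.32 below number 1 in the mean.

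The stress-inducible Hsp70B genes are near-identical copies, and Hsp70Bb has no probe set of its own. Probe set 149782_at lists Hsp70Ba, Hsp70Bb, Hsp70Bbb and Hsp70Bc, so its signal cannot be assigned to any of these 4 genes, and it is not counted among the 6. It read 8.34, 10.22 and 7.29 in DN1 to DN3 and 7.72, 11.83 and 6.99 in ACT1 to ACT3. The order of the arrays was that of Hsp68: ACT2 highest, DN2 next, and DN3 and ACT3 lowest. The range was 28.7-fold, and ACT2 exceeded the mean of ACT1 and ACT3 by 22.3-fold, DN2 that of DN1 and DN3 by 5.31-fold. A further probe set that adds CG5608 to these genes (151036_f_at) read 9.42 in DN2 and 9.44 in ACT2, against 8.57 to 8.88 in the other 4.

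The co-chaperone gene DnaJ-1 (143835_at) read 10.72, 11.52 and 10.40 in DN1 to DN3. In ACT1 to ACT3 it read 10.12, 11.86 and 10.62. Both arrays numbered 2 were above the rest, and number 2 exceeded number 1 by 1.27, or 2.41-fold. Number 3 and number 1 overlapped, with a difference of 0.09. The higher probe set of stv (148716_at) read 9.43, 9.35 and 9.05 in DN1 to DN3 and 9.36, 9.75 and 9.09 in ACT1 to ACT3. ACT2 was highest there, while DN2 lay below DN1, and DN3 and ACT3 were lowest. The lower one (151834_at) read 7.51, 7.89 and 7.45 in DN1 to DN3 and 7.40, 7.69 and 7.26 in ACT1 to ACT3. At this probe set DN2 and ACT2 were the highest arrays, so the 2 probe sets of stv differ in how DN2 stands. For number 2 minus number 1 they gave 0.15 and 0.34.

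For the remaining 4 listed genes no value can be assigned by the single-symbol rule. The annotation gives Hsp22 together with CG4456 at 3 probe sets. At 142836_at ACT2 read 8.97 and DN2 7.98, against 7.62 to 7.90 in the other arrays. Both arrays numbered 2 were thus highest there, though DN2 by only 0.08. The other 2 probe sets ranged over 0.32 and 0.24 log2 units, less than the median range of all probe sets, 0.51. Hsp83 is named for 143198_at only by a synonym in the RefSeq gene table. Of 133 such probe names among the tested probe sets, 111 have a single symbol in the probe table, and it was the same gene in 111. This probe set read 13.81, 14.18 and 14.13 in DN1 to DN3 and 13.93, 14.24 and 14.25 in ACT1 to ACT3. It followed another order: DN1 and ACT1 were lowest, and number 3 minus number 2 was -0.02. Hsp23 and Hsp67Bc matched no probe set and were not analysed here.

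Along the axis of number 2 against the other 4 arrays, Hsp68 ranked 2 of 13966 probe sets, with a difference of 2.28. DnaJ-1 ranked 5 with 1.22, and Hsp26 ranked 12 with 1.04. The Hsp70B probe set 149782_at ranked 1 with 3.44. Hsp27 (0.35) and the stv probe sets (0.39 and 0.32) ranked 501, 400 and 670. The probe sets that ranked between Hsp68 and DnaJ-1 and between DnaJ-1 and Hsp26 are annotated to none of the listed genes. Differences of this size were thus not confined to the listed genes. These ranks describe the contrast by which the genes were proposed.

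**Figure D2:**
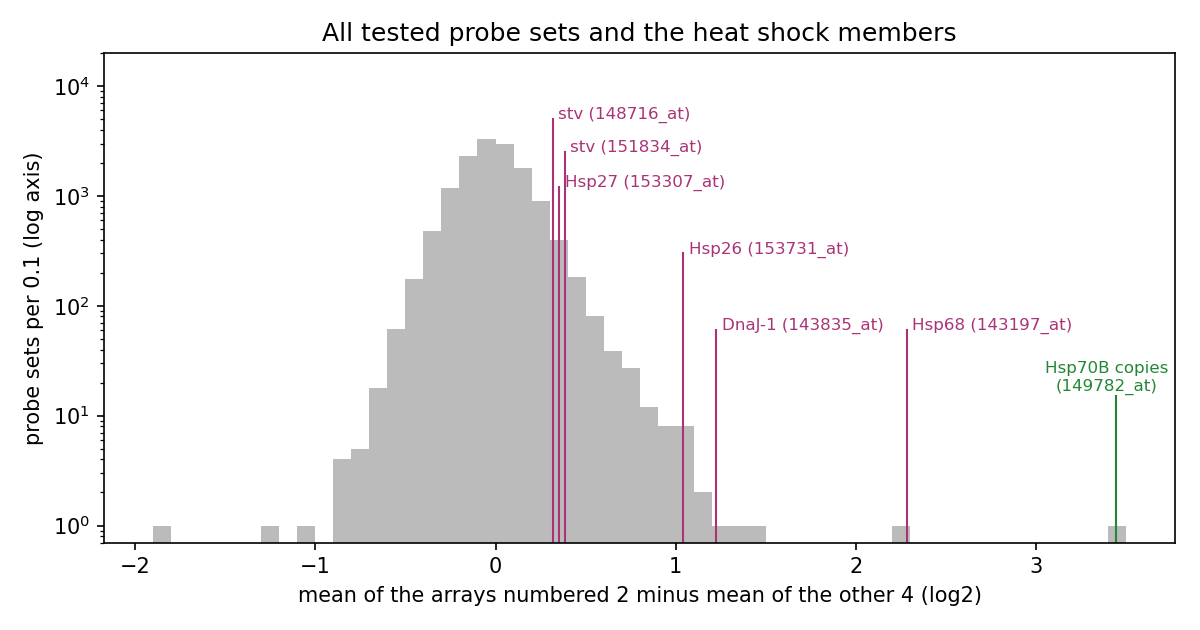
The grey bars count all 13966 tested probe sets, on a log axis, by the mean of DN2 and ACT2 minus the mean of the other 4 arrays (log2), and vertical lines mark the 6 heat shock probe sets and the shared Hsp70B probe set, with line heights set for legibility only. Hsp68 at 2.28 and the Hsp70B probe set at 3.44 stand apart from the bulk, while Hsp27 and stv lie within its upper flank.

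At the low end, both arrays numbered 3 lay below the other 4 at 3 of 6 probe sets, those of Hsp68 and Hsp27 and the higher one of stv, where 15.9% of all probe sets did so. They were above the other 4 at 0 of 6, where 12.6% of all were. Here a measure of RNA quality moved with the numbers. The control probe sets of GAPDH read higher at the 3′ than at the 5′ end by 2.00 in DN3 and 1.56 in ACT3, against 1.00 to 1.25 in the other arrays. For actin the difference was 1.68 in DN3 and 0.96 in ACT3, against 0.36 to 0.87. It was 1.39 and 1.06 for eIF-4a, against 0.76 to 1.45, with the highest in ACT2. Their part in the low values of number 3 was not tested.

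Further chaperones were set beside the inducible ones. Of 47 further chaperone and heat shock names, 37 genes were measured. Of 9 other heat-inducible names among them, only 1 was measured, Hsf. The 37 are thus mostly other kinds of chaperone, and their counts say little of other heat-inducible genes. DN2 and ACT2 were both above the other 4 arrays in 0 of the 37, where 5.31% of all probe sets had both above. They were both below in 3 (Hsp110, CG11267 and CCT5, named after their values were seen), where 6.18% of all had both below. Both counts are near the background. Number 2 minus the mean of the others ran from -0.50 in Tpr2, a J-domain protein gene, to 0.34 in Hsp60D, of the Hsp60 family. The difference in Hsp60D came from ACT2 at 8.88, with DN2 at 8.24 within the other arrays (8.16 to 8.27). The median of number 2 minus number 1 over the 37 genes was -0.00066, and that of number 3 minus number 1 was 0.16. Both arrays numbered 3 were above the other 4 in 9 of the 37, where 12.6% of all probe sets had both above. They were both below in 3, where 15.9% of all had both below.

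Hsf, which encodes the heat shock factor, read 7.76, 8.41 and 8.28 in DN1 to DN3 and 7.96, 7.65 and 8.51 in ACT1 to ACT3. It was lowest in ACT2, the array highest for Hsp68. Of 6 constitutive Hsp70 genes 0 had both arrays numbered 2 highest, where 5.31% of all probe sets had this, so the count is near the background. Hsc70-4, the major cytosolic Hsp70 of unstressed fly cells, read 13.38, 13.74 and 13.74 in DN1 to DN3 and 13.18, 12.94 and 13.73 in ACT1 to ACT3, again lowest in ACT2. Hsc70-5, the mitochondrial Hsp70, read 7.49, 8.83 and 9.19 in DN1 to DN3 and 7.45, 7.93 and 9.23 in ACT1 to ACT3, highest in both arrays numbered 3.

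Of the 4 other small heat shock genes measured, CG13133 spanned 0.68 and CG4461 0.47, and number 2 minus number 1 was -0.05 and -0.32. Among 11 co-chaperones of Hsp90 and Hsp70, the Aha1-like gene CG1416 read 8.27 in ACT2, its lowest array, and 9.36 in DN2. Tpr2 likewise read 8.96 in ACT2, its lowest, and 9.72 in DN2. Hsp60A, the mitochondrial chaperonin, read 12.59 in DN3 and 12.82 in ACT3, above 12.11 to 12.31 in the other arrays. Of 8 subunit genes of the cytosolic chaperonin CCT, 0 had both arrays numbered 2 highest (5.31% of all probe sets) and 3 had both numbered 3 highest (12.6% of all). CCT7 had number 2 minus number 1 at 0.40, and CCT4 had -0.33.

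**Figure D3:**
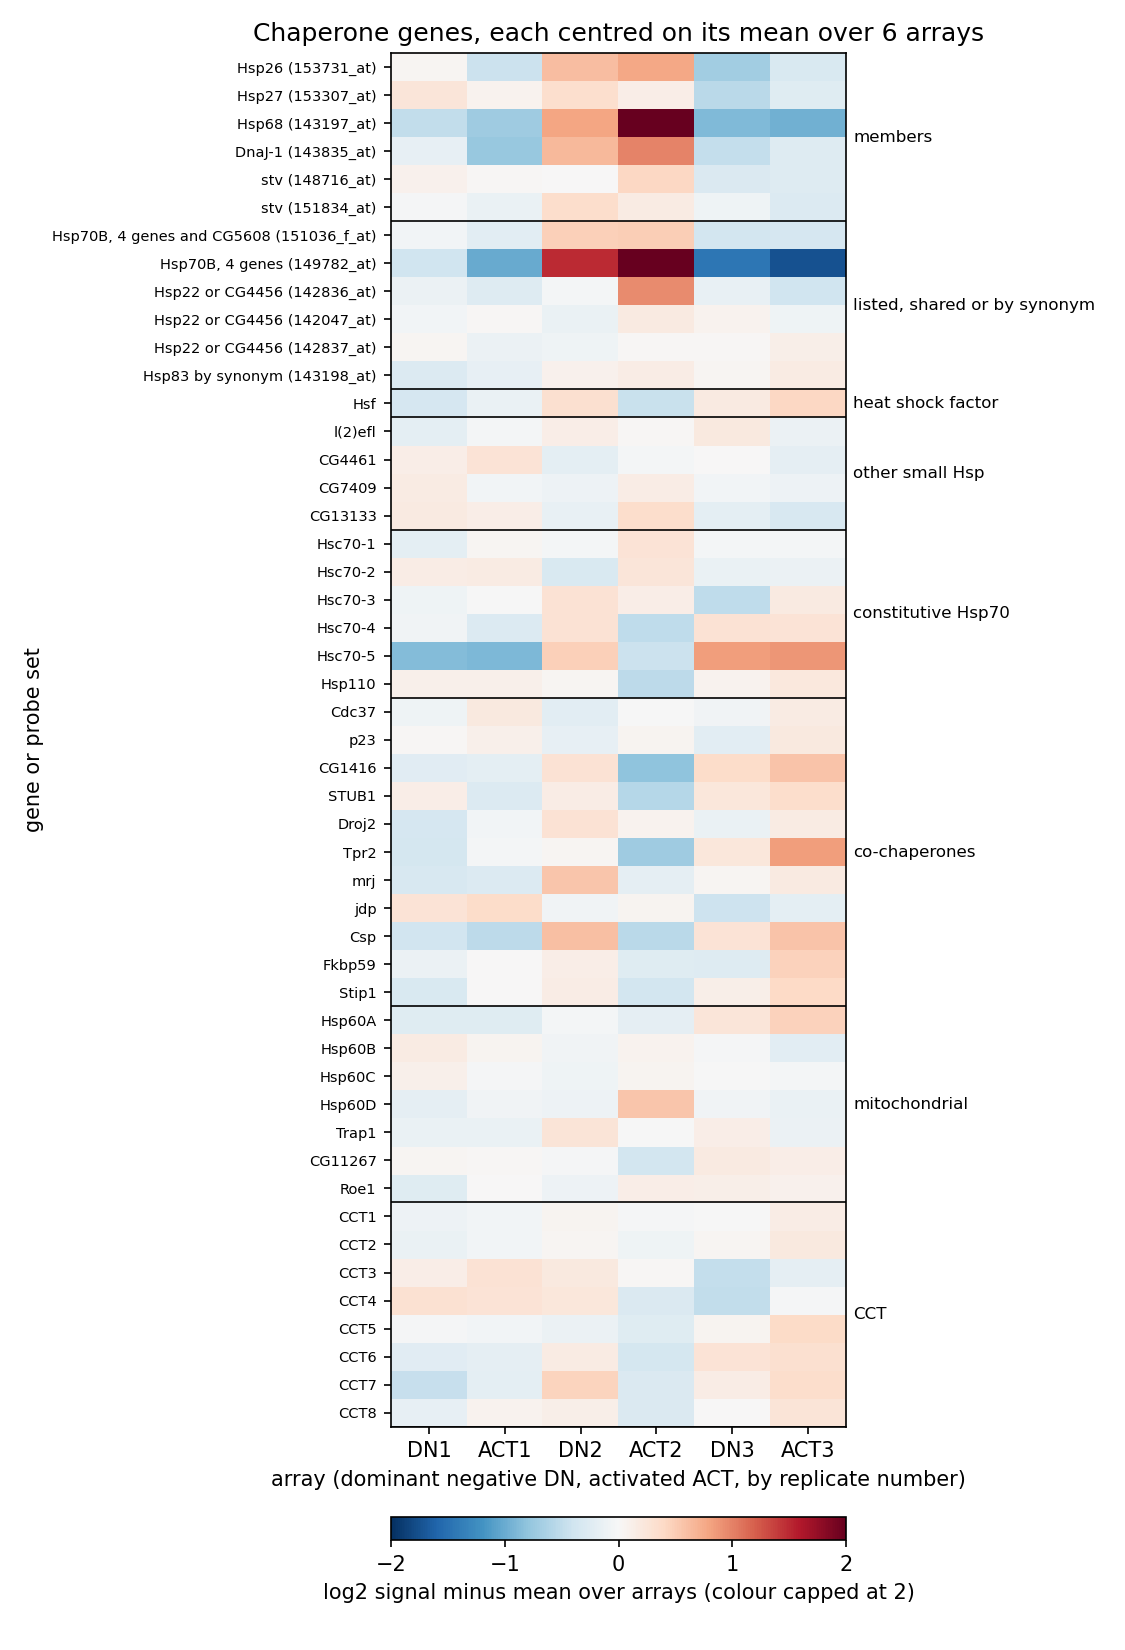
Rows are probe sets of the heat shock set, listed genes on shared probe sets or named by a synonym, and 37 further chaperone genes; columns are the 6 arrays ordered by replicate number, and colour is the log2 signal minus the row's mean, capped at 2. The DN2 and ACT2 columns are red for Hsp26, Hsp68, DnaJ-1 and the Hsp70B probe sets, while most other chaperones are pale or blue in ACT2.

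Lists of other stress genes were read the same way. Both arrays numbered 2 were highest in 0 of 6 genes of stress in the endoplasmic reticulum, 0 of 8 of oxidative and metal stress and 0 of 7 of the JNK pathway and wounding. With 5.31% over all probe sets, lists of these sizes say nothing of a difference from the background. Pdi, a disulfide isomerase gene, read 12.08 in ACT2 and 12.68 to 13.03 in the others, and crc, which encodes the fly ATF4, read 11.91 in ACT2 and 12.34 to 12.95 in the others. Gene puc, a phosphatase that limits JNK, had number 2 minus number 1 at 0.66 and number 3 minus number 1 at 0.76, and kay, the Fos gene, had -0.14 and -0.07. The glutathione transferase gene GstE1 had -0.37 and -0.04, and the catalase gene Cat 0.23 and 0.20.

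Markers of other cell types were set beside the pattern. Blood cell markers were the 1 marker list with genes that had both arrays numbered 2 highest, 3 of 8 (PPO1, Pxn and eater, the last 2 named after their values were seen), where 5.31% of all probe sets had this. Of these, eater read at most 5.90, under the highest mean of the yeast controls (5.96), so its order over the arrays is not one of levels above background. Summed on the linear scale, the 8 blood cell markers ranged from 1334 to 1673 in dominant negative and from 1665 to 1947 in activated discs, with DN2 and ACT2 the highest of each group. PPO2, with the highest mean of the 8 (9.60), weighs most in this sum. In dominant negative discs Hml, srp and crq were highest in DN3 and NimC1 in DN1, while the other markers were highest in DN2. In activated discs crq was highest in ACT3 and lowest in ACT2, and NimC1 was highest in ACT1, while the other markers were highest in ACT2. Hml, srp, crq and NimC1 were named after their values were seen, and the means of NimC1 (5.85) and srp (5.54) lay under 5.96. Markers of salivary gland, fat body, trachea, myoblasts and wing disc had 0 such genes of 8, 4, 5, 4 and 6 measured. The sum of the salivary gland markers was 13436 in DN2 but 4433 in ACT2, over ranges of 4400 to 14122 and 3476 to 10953. That of the fat body markers was 5703 in DN2 and 4323 in ACT2, over 4346 to 8870 and 2208 to 6590. The trachea sum was 13850 in DN2 and 8558 in ACT2, over 10076 to 14698 and 8558 to 11803, and the myoblast sum 1682 and 1310, over 1498 to 1682 and 1159 to 1310. Wing disc markers summed to 6102 and 5698, over 4663 to 6102 and 5362 to 5879. The myoblast sum was also highest within each group in DN2 and ACT2, though single markers were highest in other arrays. The part of blood cells or myoblasts in the chaperone values was not tested.

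Genes beside the chaperone genes were read in RefSeq order, by a rule chosen after the pattern was known. The first measured gene with a single symbol on each side was taken, passing over the listed chaperone genes themselves, which gave 8 distinct neighbours. Hsp26 and Hsp27 lie in the same gene cluster and were so passed over as neighbours of each other. In 0 of the 8 were both arrays numbered 2 highest, where 5.31% of all probe sets had this, so the count is near the background. Number 2 minus the others ran from -0.21 to 0.04 in them. Hsp26 and Hsp27 share their neighbours on both sides: CG4461, itself a small heat shock gene, and CG4080. CG4461 read 8.40 in DN2 and 8.55 in ACT2, within the 8.41 to 8.87 of the other arrays or just below. For Hsp68 the neighbours were CG6000, with number 2 minus the others at 0.02, and SMC1, a cohesin gene, with -0.07.

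Genes most like the chaperones over the arrays were ranked by Pearson's r with the mean centred profile of the 5 genes, over 6 arrays, among 3004 genes with a mean of at least 8 and a range of at least 0.5. The first 10 had r from 0.94 to 0.99. They were Shawl, CG14326, side, unc-5, CG7328, lectin-46Ca, CG6966, CG4238, Mob2 and Tnks. Their number 2 minus the others was 0.32 to 0.51, smaller than in Hsp26, DnaJ-1 and Hsp68. They were picked by the shape of the profile and not by its size, so they are not the genes of largest difference. Without the arrays numbered 2, over 4 arrays, their r was 0.55 to 0.92. The points of each r are the same 6 arrays, so it is given as a description, with no test.

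The comparison the study was designed for, activated against dominant negative Egfr, showed no difference in the chaperones that passed the test. With limma, a linear model that pools the spread over all probe sets, 0 of 6 probe sets were called at a Benjamini-Hochberg adjusted p under 0.05, where 0% of the 13966 were called. At an unadjusted p under 0.05 the count was 0 of 6, where 2.21% of all were. The groups overlapped at all 6 probe sets. Over all probe sets activated discs lay wholly above dominant negative discs in 3.39% and wholly below in 2.84%. The log2 difference, activated minus dominant negative, was above 0 at 3 probe sets and below 0 at 3, with a median of 0.03 over the 5 genes, where the median of all probe sets was 0.02. The limma adjusted p was 1 for each, and the unadjusted p ran from 0.359 to 0.978.

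Hsp68 averaged 8.74 ± 1.78 (SD, n = 3) in activated and 8.34 ± 0.88 (SD, n = 3) in dominant negative discs. Its log2 difference was 0.40 (SE 0.77), with a 95% interval from -1.36 to 2.15, so a 2-fold difference in either direction lies inside it. The sign rested on ACT2, without which the difference was -0.63. That setting keeps the high DN2 in the other group, and without both arrays numbered 2 the difference was -0.14. At the same number, ACT exceeded DN for Hsp68 at number 2 only. Hsp26 averaged 11.60 ± 0.66 against 11.57 ± 0.66 (SD, n = 3 each), a difference of 0.03 (SE 0.38) with an interval from -0.82 to 0.89. Without ACT2 the difference was -0.35, without DN3 it was -0.31, and without both arrays numbered 2 it was -0.030.

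Hsp27 averaged 13.11 ± 0.20 against 13.14 ± 0.48 (SD, n = 3 each). The difference was -0.03 (SE 0.23), with an interval from -0.56 to 0.50. For DnaJ-1 the means were 10.87 ± 0.90 and 10.88 ± 0.57 (SD, n = 3 each), with a difference of -0.01 (SE 0.43) and an interval from -0.98 to 0.95. DnaJ-1 differed by -0.51 without ACT2, by 0.36 without ACT1 and by -0.19 without both arrays numbered 2. For stv the difference was 0.12 (SE 0.19) at the higher probe set, with an interval from -0.31 to 0.56. At the lower one it was -0.17 (SE 0.17), with an interval from -0.56 to 0.23. The 2 probe sets of stv thus had opposite signs, and at the lower one each activated array read below the dominant negative array of the same number.

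The spread between arrays of a group was wide where the inducible genes were highest: the SD of Hsp68 was 1.78 in activated discs and that of the shared Hsp70B probe set 2.61. That probe set had a difference between the transgenes of 0.23 (SE 1.16), and the Hsp83 probe set had 0.10 (SE 0.16), both with a limma adjusted p of 1. Of the 37 further chaperone genes, 0 were called, 0 had an unadjusted p under 0.05, 20 were higher and 17 lower in activated discs, and the median difference was 0.03. The groups did not overlap in 2 of them, Cdc37 and p23, both co-chaperones of Hsp90 and named after their values were seen, with differences of 0.24 (SE 0.13) and 0.23 (SE 0.13). This is near the shares over all probe sets, 3.39% wholly above and 2.84% wholly below.

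**Figure D4:**
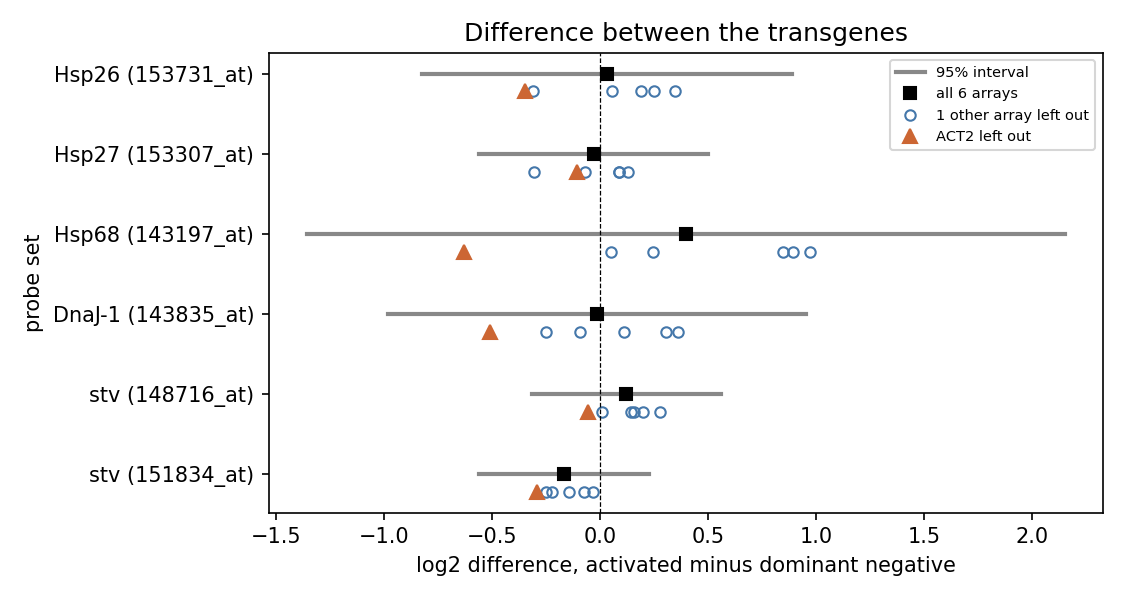
For each heat shock probe set, the square is the log2 difference of activated minus dominant negative discs over 6 arrays and the bar its 95% interval from limma; circles leave out 1 array other than ACT2 and the triangle leaves out ACT2. Every interval includes 0. Leaving out ACT2, with DN2 kept in the other group, gives the lowest value for Hsp26, Hsp68, DnaJ-1 and both stv probe sets, down to -0.63 for Hsp68.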

How the data were processed

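The deposited series table gives log2 signals, a value for each probe set on each array. The submitters' processing notes name GCRMA as what the authors ran, a method that adjusts for background from probe sequence and summarises probes. No version, settings or between-array normalization are named there. That the scale is log2 was taken from the values (4.72 to 15.08). Of 14010 probe sets, 44 controls were left out; a filter at a mean of 4 removed 0. Names came from the platform annotation (12443 probe sets with 1 symbol, 327 with several, 1196 with none), and a gene was read at its probe set of highest mean. No sequences were used here. Activated and dominant negative arrays were fitted with limma (3.58.1, R 4.3.3, lmFit and eBayes, two-sided, no covariate, Benjamini-Hochberg over 13966 probe sets), since exact permutation of 3 against 3 arrays is unable to reach the threshold. The fit was tested on simulated data. Genes and lists were chosen with earlier results of these data known. Named were the listed genes, 2 genes of largest range per other list (marker lists are given as sums) and the 10 genes of most similar profile; others are marked. Alternatives were centring, quantile normalization, other filters, another prior, weights per array, a block for replicate number, averaged probe sets of a gene, and each array left out. Figures used matplotlib 3.10.9 in Python 3.11.15.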

Additional observations from a re-analysis of the deposited data

How the results depend on the processing

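No alternative called a chaperone probe set between the transgenes, with adjusted p of at least 0.695 in limma. Over all probe sets 0 were called in every setting but array weights, which called 1 (CG13053, named after its values were seen). At an unadjusted p under 0.05 there were 308, against 1109 with array weights, 774 with the replicate block, 127 without the arrays numbered 2 (added after seeing the data) and 193 to 1043 with 1 array left out. Replicate numbers were not taken as pairs in the main fit, as the labels do not say what they share. Deviations from the group means correlated at 0.61 for number 1, -0.08 for number 2 and 0.60 for number 3. Between unlike numbers they correlated at -0.68 to 0.29. DN1 thus moved with ACT1, and DN3 with ACT3, and the main fit leaves this in the spread behind its SEs, intervals and p-values. The block takes it out and made no call. Some differences between the transgenes, all uncalled, turned sign. Array weights gave -0.11 for Hsp68, -0.21 for Hsp26 and 0.027 for Hsp27, and quantile normalization gave 0.049 for DnaJ-1 and 0.10 for Hsp27. Without the arrays numbered 2 the difference was -0.14 for Hsp68, -0.020 for the higher stv probe set, -0.030 for Hsp26 and 0.056 for Hsp27. With 1 array left out it ran from -0.63 to 0.97 for Hsp68, -0.51 to 0.36 for DnaJ-1, -0.055 to 0.28 for the higher stv probe set, -0.35 to 0.35 for Hsp26 and -0.31 to 0.13 for Hsp27. The cause was not tested. The median over the 5 genes of activated minus dominant negative, 0.03, ran from -0.35 to 0.31 with 1 array left out, and was -0.012 with a gene's probe sets averaged and -0.030 without the arrays numbered 2, so its sign is not settled. The median of number 2 minus number 1 stayed between 0.66 and 1.12 with 1 array left out, and that of number 3 minus number 2 between -1.29 and -0.997. Scanner signals over background were not used here, so what depth limits is unknown.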
